A study of Mus musculus with 12 samples.

Results

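The 300 most abundant transcripts of mouse triceps muscle are described here. They are the 300 probes, of 45281 on the array (0.663%), with the highest mean over the 12 columns of the deposited log2 value table. Members were thus chosen by their measured mean levels, which are given as a description with no test. A probe's brightness also depends on how well it binds, so ranks and shares are those of array signal and not of molecules. The annotation gave 1 gene symbol to 221 of the 300 probes, which stood for 188 genes, and none to the other 79. The limit fell in a dense part of the ranking. The last members were Hdgf (rank 299, mean 13.38) and Psmd4 (rank 300, 13.38), and the first probes outside were an unnamed one (13.37) and 2310002L09Rik (13.37).

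The mice were male, of the strain C57BL/6J and 12 weeks old, and RNA was taken from their triceps brachii in the forelimb. Osmotic pumps under the skin delivered either saline or 20-hydroxyecdysone (20E), a steroid that insects use for moulting and many plants also make, at 5 mg/kg/day. The infusion ran for 5 or 15 days, and each of the 4 groups (saline 5d, 20E 5d, saline 15d, 20E 15d) held 3 pools on 1 array each. A pool combined equal RNA from 3 animals, except 1 saline pool with 2, so the spread below is between pools and not between single mice. The mice carried no engineered allele that the labels name, all had the same diet, and the saline groups carried pumps too. The study asked what continuous 20E does to gene expression in muscle.

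Skeletal muscle devotes much of its messenger RNA to the contractile apparatus, in which myosin of the thick filament pulls on actin of the thin filament between Z discs. Calcium released from the sarcoplasmic reticulum starts this movement, and creatine kinase, glycolysis and mitochondrial oxidative phosphorylation supply the ATP. Fast and slow fibres use different isoforms of many of these proteins.

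All 300 members were detected on all 12 arrays, and all were among the 19704 probes tested, so the filter on low values removed none. On average they held 39.7% ± 1.03 (SD, n = 12) of the background-subtracted signal, against 12.8% ± 0.145 for the next 300 probes. The 10 brightest alone held 3.25% ± 0.295 and the 100 brightest held 22.1% ± 0.978. Between 485 and 568 probes were needed on an array to reach 50% of its signal.

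By array, the share of the members was 38.9, 39.7 and 38.6% in the saline pools of 5 days and 37.8, 40.3 and 39.4% in the 20E pools of 5 days. It was 39.2, 40.9 and 39.9% in the saline pools of 15 days and 40.9, 39.5 and 41.2% in the 20E pools of 15 days. The lowest share was that of 20E 5d replicate 1 and the highest that of 20E 15d replicate 3, and saline and 20E pools overlapped at both durations. The array of 20E 5d replicate 1 also had the highest total background-subtracted signal, 23753117 against 16794262 to 19516658 on the others. The part of this brightness in its low share was not tested. The columns of the signal table also carry a running number from 1 to 12, whose meaning the labels do not give. The 10 brightest members held 2.64 to 3.15% of the signal on arrays numbered 1 to 6 and 3.29 to 3.64% on arrays numbered 7 to 12, with no overlap. For the 300 members the means on these sets of arrays were 39.0% ± 0.732 and 40.4% ± 0.739 (n = 6 each). All 4 groups have arrays on both sides of that split, but not evenly. Saline pools were numbered 2, 10 and 5 at 5 days and 6, 9 and 4 at 15 days. The 20E pools were numbered 1, 8 and 12 at 5 days and 7, 3 and 11 at 15 days, so more of them lie in the later set. The 20E comparisons below are thus partly mixed with the running number, which the main fit left out.

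**Figure D1:**
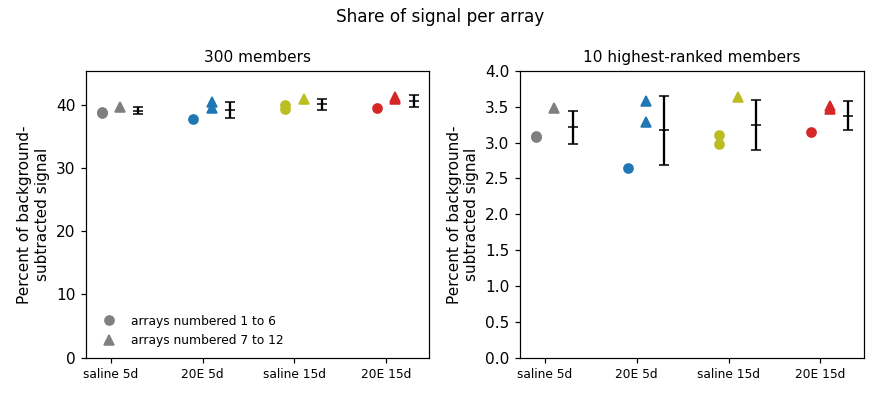
Percent of background-subtracted signal held by the 300 members (left) and by the 10 brightest of them (right), 1 point per array and group, with circles for running numbers 1 to 6, triangles for 7 to 12, and the group mean ± SD (n = 3) beside them. The 300 members lie between 37.8 and 41.2% with overlapping groups, and for the 10 brightest every triangle lies above every circle.

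The brightest member was Eno3, the muscle isoform of the glycolytic enzyme enolase. Next among the named ones came Atp5b (rank 4), a catalytic subunit of ATP synthase, Mylpf (rank 8), the regulatory myosin light chain of fast fibres, and Ckm (rank 10), muscle creatine kinase. The other 6 of the top 10 have no symbol in the annotation. The contractile apparatus was spread over several lists of genes. Thick filament proteins and their light chains supplied 10 member probes with 1.72% ± 0.0799 of the signal (SD, n = 12). Thin filament, troponin and tropomyosin genes supplied 7 with 1.64% ± 0.0965, led by the fast troponin C gene Tnnc2, the tropomyosin gene Tpm2 and the skeletal actin gene Acta1. Z disc, titin and cytoskeletal genes supplied 16 with 2.53% ± 0.0628, led by Tcap, the titin cap, the small heat shock protein gene Hspb6 and the fast-fibre actinin gene Actn3. Calcium handling supplied 5 with 0.933% ± 0.0731, among them Pvalb, a cytosolic calcium buffer, Atp2a1, the calcium pump of fast fibres, and Ryr1, the calcium release channel.

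Energy supply took the largest place by number of probes. Nuclear genes of the electron transport chain and ATP synthase gave 46 members from 43 of the 76 such genes on the array, with 5.83% ± 0.279 of the signal. The mitochondrial genome added 5 members with 0.898% ± 0.0395, among them ND4, ND1 and CYTB, which encode subunits of the respiratory chain. Glycolysis and glycogen genes supplied 12 with 2.21% ± 0.0819, including Aldoa (aldolase A) and Tpi1 (triosephosphate isomerase). Creatine, adenylate and oxygen buffering supplied 11 with 1.80% ± 0.0997, including Adssl1, an enzyme of the purine nucleotide cycle, and Mb, myoglobin. The citric acid cycle and fatty acid oxidation list supplied 6 with 0.582% ± 0.0261, among them Lpl, Got2 and Suclg1. Ribosomal protein genes supplied 28 members with 3.17% ± 0.144, including Rplp1, Rps2 and the muscle-enriched paralogue Rpl3l, and translation factors supplied 4 with 0.417% ± 0.0175, including both Eef1a2 probes. The list of androgen, glucocorticoid, FoxO and myostatin related genes had 1 member, Smox, the spermine oxidase gene. In all, 151 members stood in a list with 21.8% of the signal and 149 in none with 17.9%.

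The label of the tissue was set against marker genes. Of 16 probes for 10 fast-fibre genes, 14 were members, whereas 0 of 14 probes for slow-fibre genes were. The brightest slow-fibre probe was that of Myl3 at rank 586, and those of Myh7 stood between ranks 9343 and 16145. Red cell genes gave 9 members, all globin probes. One fibroblast probe was a member (Dcn, rank 221), and markers of adipocytes, endothelium, immune cells, nerve and skin gave none. The summed adipocyte markers held 0.133, 0.0335 and 0.0434% of signal in the 20E pools of 5 days. They held 0.0206, 0.0438 and 0.0210% in the saline pools of 5 days, so only 20E 5d replicate 1 stood apart. Summed slow-fibre markers held 0.160, 0.160 and 0.0643% in the saline pools of 5 days, where only replicate 3 was low. They held 0.173, 0.151 and 0.153% in the 20E pools of 5 days. Immune markers reached 0.151% in 1 saline pool of 5 days and 0.0899% at most in the 20E pools of 5 days. At 15 days they ran from 0.0260 to 0.0422% in the saline pools and from 0.0238 to 0.0252% in the 20E pools, without overlap. The part of these cell types in the differences below was not tested.

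Promoter sequence is a property that the ranking did not use. RefSeq (GRCm38.p6) held 199 promoters for 153 of the 188 member genes, and the 250 bases before each start were searched on both strands. The E-box CAGCTG, a form bound by myogenic bHLH factors such as MyoD, stood in 16.6% of member promoters, in 4271 of all 32851 promoters and in 12.2% of the 11116 promoters of tested genes. Among the 23 promoters of contractile, Z disc and calcium handling members it stood in 10 (43.5%). It stood in 4 of 41 promoters of electron transport and ATP synthase members (9.76%) and in 2 of 28 of ribosomal protein members (7.14%). The MEF2 motif stood in 4.02% of member promoters, 1.69% of all and 1.26% of those of tested genes. By the same member sets, in that order, it stood in 4, 0 and 1 promoters. The CArG box, bound by serum response factor, stood in 3.02%, 1.47% and 1.30%, and in 3, 0 and 1 promoters of those member sets. TATAAA stood in 11.6% of member promoters, a share below that of all promoters (12.4%) and above that of tested genes (7.24%). CCAAT stood in 39.2%, 33.8% and 34.8%. The motifs may overlap one another in a window, and a match describes letters only.

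Examples of these promoters are shown, each as the 120 bases before the annotated start, to let the E-box, the MEF2 motif, the CArG box and TATAAA be seen in contractile, Z disc and calcium handling members. They were picked for holding a match. Others of the same lists held none of these 4 motifs in that window, among them Tnnc2 (rank 14), Tpm2 (rank 15) and Ttn (rank 37). Capitals mark the matches. Acta1 lies at chr8:123894776-123894895 on the minus strand and holds a CArG box and TATAAA. Myh4, which encodes the fastest myosin heavy chain, lies at chr11:67237692-67237811 on the plus strand and holds a CArG box, CAGCTG and TATAAA. Mylpf lies at chr7:127211488-127211607 on the plus strand and Atp2a1 at chr7:126463074-126463193 on the minus strand, each with CAGCTG. Xirp2 (rank 205), which encodes an actin-binding protein of muscle attachment sites, lies at chr2:67445882-67446001 on the plus strand and holds a MEF2 motif.
Acta1: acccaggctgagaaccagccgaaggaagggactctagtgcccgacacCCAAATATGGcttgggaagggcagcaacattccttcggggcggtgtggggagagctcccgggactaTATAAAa
Myh4: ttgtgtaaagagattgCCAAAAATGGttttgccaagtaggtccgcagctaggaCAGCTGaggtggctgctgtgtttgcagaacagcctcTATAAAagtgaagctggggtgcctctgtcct
Mylpf: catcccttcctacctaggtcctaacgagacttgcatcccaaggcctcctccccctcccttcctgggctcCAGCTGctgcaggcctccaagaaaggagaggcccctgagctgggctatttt
Atp2a1: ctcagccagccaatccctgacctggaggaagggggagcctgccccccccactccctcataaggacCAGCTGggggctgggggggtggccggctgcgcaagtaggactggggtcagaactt
Xirp2: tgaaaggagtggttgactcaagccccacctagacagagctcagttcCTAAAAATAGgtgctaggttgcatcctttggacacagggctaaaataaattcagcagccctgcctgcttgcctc

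The highest signals lay close together. The highest deposited signal was 67672, that of Mylpf in 20E 5d replicate 2, and 6 signals of 5 members on 4 arrays exceeded 65535, the largest whole number of a 16-bit scanner. The value itself was therefore no strict ceiling of the deposited numbers. The highest signal of an array ranged from 57273 to 67672, and 7 different probes held that place on at least 1 array. The mean signal of rank 1 was 61092 and that of rank 10 was 58042, a ratio of 1.05, whereas rank 10 exceeded rank 100 (mean 24974) by 2.32-fold and rank 300 (10814) by 5.37-fold. In total, 30 members had a mean above 50000, and 63 had a mean above 33836, 20 of them unnamed.

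Eno3 shows how flat the top was. Its signals were 63525, 58068 and 59397 in the saline pools of 5 days and 64190, 62382 and 56632 in the 20E pools of 5 days. They were 55641, 64986 and 59452 in the saline pools of 15 days and 62785, 60580 and 65465 in the 20E pools of 15 days. The highest value was less than 1.2-fold the lowest, and the groups overlapped.

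**Figure D2:**
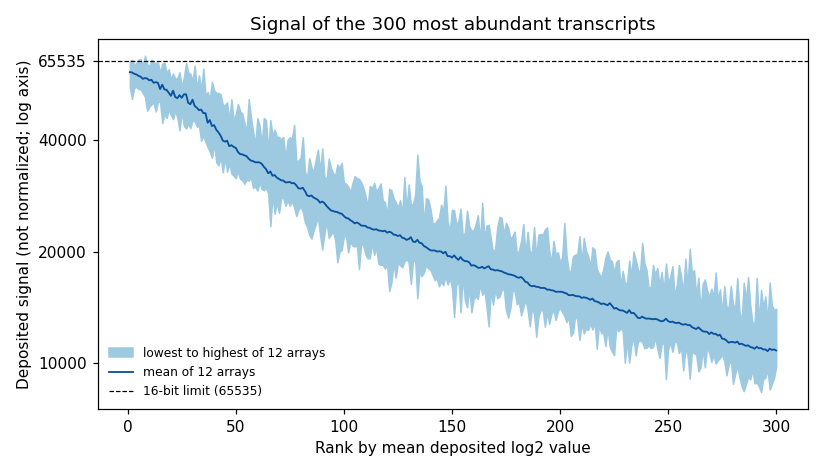
Deposited signal of the 300 members on a log axis against their rank, as the mean (line) and the range (band) over 12 arrays, with the 16-bit limit of 65535 dashed. The curve is flat over the first 10 ranks, from 61092 to 58042, and falls to 10814 at rank 300.

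Arrays differed in overall brightness, and over all 12 arrays the brightest members followed these differences only weakly. Array means of log2 signal over ranks 301 to 1000 served as the reference, and the slope of each rank class on it would be 1 for a proportional response. The slope was 0.119 for ranks 1 to 10, 0.480 for ranks 11 to 50, 0.827 for ranks 51 to 100, 0.853 for ranks 101 to 200 and 0.977 for ranks 201 to 300. For the next 300 probes it was 0.982. One array, 20E 5d replicate 1, was the brightest of the reference class and carried much of the span. Without it the slopes were -0.13, 0.376, 0.743, 0.695 and 0.962 for the 5 member classes and 1.00 for ranks 301 to 600, so the lower slopes of the top 50 remained and the sign of the first class turned. These slopes describe 12 arrays and were given no test. They also span both sets of running numbers, between which the share of the 10 brightest differed. For example, saline 5d replicate 2 (number 10) deviated by -0.164 in the reference and by -0.025 in ranks 1 to 10. Saline 15d replicate 1 (number 6) deviated by -0.037 and -0.156. The slope within each set is not given here, so a low slope over all arrays need not hold within a set. The intervals of the brightest members given below bound a difference in signal, and how far signal tracks the amount of RNA at this brightness was not tested.

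**Figure D3:**
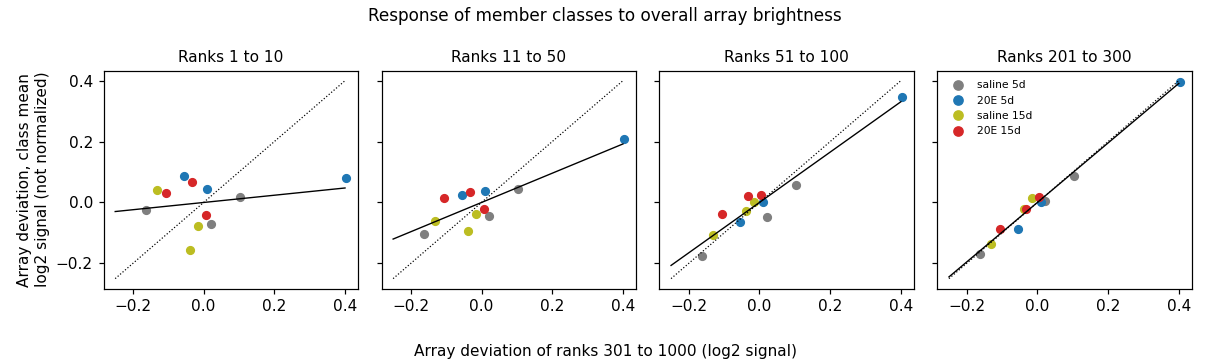
Deviation of each array's mean log2 signal from the 12-array mean, for 4 rank classes (vertical axis) against ranks 301 to 1000 (horizontal axis), 1 point per array and coloured by group. The solid line is the fitted slope (0.119, 0.480, 0.827 and 0.977 from left to right) and the dotted line a slope of 1, and the point at the right of each panel is 20E 5d replicate 1.

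The SD of the normalized log2 level between pools of a group, pooled over the 4 groups, had a median of 0.095 (6.81%) over the members and 0.179 (13.2%) over all probes tested. This gap depended on the background correction. With no background correction the medians were 0.095 and 0.094, and with an offset of 50 they were 0.095 and 0.126. With median scaling in place of quantiles they were 0.107 and 0.177. In the main fit the SD was below 0.1 for 173 members and above 0.2 for 16. By rank the median was 0.055 for ranks 1 to 10, 0.099 for 11 to 50, 0.083 for 51 to 100, 0.096 for 101 to 200 and 0.098 for 201 to 300, and it was 0.091 for the next 300 probes. Members and their neighbours in rank thus had nearly the same spread, apart from the 10 brightest. These levels were quantile-normalized, which gives the top ranks of every array the same set of values. Before normalization, the array means of log2 signal over ranks 1 to 10 had an SD of 0.075 over the 12 arrays. The low SD of the 10 brightest therefore holds for normalized levels only.

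The members with the lowest SD were a probe of Tcap (rank 25, SD 0.025) and Park7 (rank 75, SD 0.030), a protein protective against oxidative stress. The levels of that Tcap probe were 15.63, 15.71 and 15.68 in saline 5d and 15.60, 15.63 and 15.65 in 20E 5d. They were 15.68, 15.70 and 15.70 in saline 15d and 15.67, 15.65 and 15.67 in 20E 15d. All 12 pools thus lay between 15.60 and 15.71. The second Tcap probe (rank 12) had an SD of 0.079. Both lie in ranks 11 to 50, where the slope on brightness was 0.480, and the part of that weak response in their SDs was not tested.

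The least steady member was Ppp1r3c (rank 134, SD 0.303), which directs protein phosphatase 1 to glycogen. It read 14.21, 14.02 and 14.09 in saline 5d and 14.85, 14.28 and 14.01 in 20E 5d, then 14.41, 14.81 and 14.12 in saline 15d and 14.69, 14.24 and 14.51 in 20E 15d. Single pools of every infusion were high, and the groups overlapped at both durations. Smox (rank 290, SD 0.250) came next, with 12.78 in 20E 5d replicate 1 and between 13.25 and 13.65 in the other 11 pools. The 9 globin probes had a median SD of 0.232.

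Part of the spread ran with the running number rather than with the groups. Acta1 read 15.41 to 15.65 on arrays numbered 1 to 6 and 15.69 to 15.93 on arrays numbered 7 to 12, with no overlap. The difference of 0.36 (log2, SE 0.064) had an adjusted p of 0.0877 in the limma model with Benjamini-Hochberg adjustment, and no member passed 0.05. At an unadjusted p under 0.05, 36 members differed between these sets of arrays (12.0%), against 13.5% of all probes tested. The mitochondrial transcripts ND4 and ND1 had log2 differences of -0.20 and -0.22 (adjusted p by limma 0.199 and 0.281). With the running number as a block, the median SD of the members was 0.082.

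After 5 days, 0 of the 300 members passed an adjusted p under 0.05 in the comparison of 20E with saline by limma. The same test called 0.0% of the 19704 probes. At an unadjusted p under 0.05 there were 2 members (0.667%), against 3.47% of all probes. The median size of the estimate was 0.04 on the log2 scale over the members and 0.09 over all probes, and estimates of members ran from -0.23 to 0.27. Groups did not overlap for 14 members (4.67%), against 7.12% of all probes tested.

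The 95% confidence interval of 20E against saline lay within 1.5-fold in both directions for 297 members (99.0%), against 76.9% of all probes tested, and within 2-fold for all 300, against 96.1%. It lay within 1.2-fold for 167 members (55.7%), against 13.9%. The count within 1.2-fold was less stable, at 87 to 105 when any 1 of the 6 arrays of 5 days was left out (lowest without 20E 5d replicate 3), 111 with median scaling and 236 with trend and robust variances. The distance from all probes depended on the background correction. Without it, 73.3% of members and 69.9% of all probes tested lay within 1.2-fold, and 99.7% and 96.8% within 1.5-fold. With the correction, the median half-width was 0.206 on the log2 scale for members and 0.311 for all probes. The 3 members with a wider bound, named after their values were seen, were Ppp1r3c, Smox and Mef2c, a transcription factor of muscle genes. Mef2c read 13.83, 13.50 and 13.92 in saline 5d and 13.76, 13.44 and 13.35 in 20E 5d. Its groups overlapped and its interval ran from 0.653-fold to 1.12-fold.

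The 2 members with an unadjusted p under 0.05 at 5 days were Mbnl1 and Ubb-ps. Mbnl1, a regulator of splicing, read 13.48, 13.54 and 13.54 in saline 5d and 13.71, 13.84 and 13.69 in 20E 5d. The 20E pools were all higher, by 0.23 (SE 0.094, interval 1.01 to 1.35-fold, unadjusted p 0.0349 and adjusted p 1.00 by limma). At 15 days the difference of Mbnl1 was 0.02. A probe of the ubiquitin pseudogene Ubb-ps read 14.94, 14.98 and 15.06 in saline 5d and 14.84, 14.78 and 14.81 in 20E 5d. The 20E pools were all lower, by a log2 difference of -0.18 (interval 0.780 to 0.995-fold). The second Ubb-ps probe had a difference of 0.07, so the probes disagreed in sign, and the near-identical parent gene may bind to both.

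After 15 days the picture was close to that at 5 days, with saline pools of their own. Again 0 members were called by limma at an adjusted p under 0.05, as were 0.0% of all probes. At this duration 6 members passed an unadjusted p under 0.05 (2.0%, against 4.16% of all probes). Estimates of members ran from -0.44 to 0.24, with a median size of 0.04 against 0.09 for all probes. The interval lay within 1.5-fold for 291 members (97.0%), against 76.7% of all probes, within 1.2-fold for 167 (55.7%), against 13.4%, and within 2-fold for all 300, against 96.2%. Leaving out any 1 of the 6 arrays of 15 days gave 84 to 102 members within 1.2-fold, lowest without saline 15d replicate 3. With no background correction, 97.0% of members and 97.1% of all probes lay within 1.5-fold. All 9 members with an interval beyond 1.5-fold were globin probes. Groups did not overlap for 24 members (8.0%), against 10.2% of all probes.

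**Figure D4:**
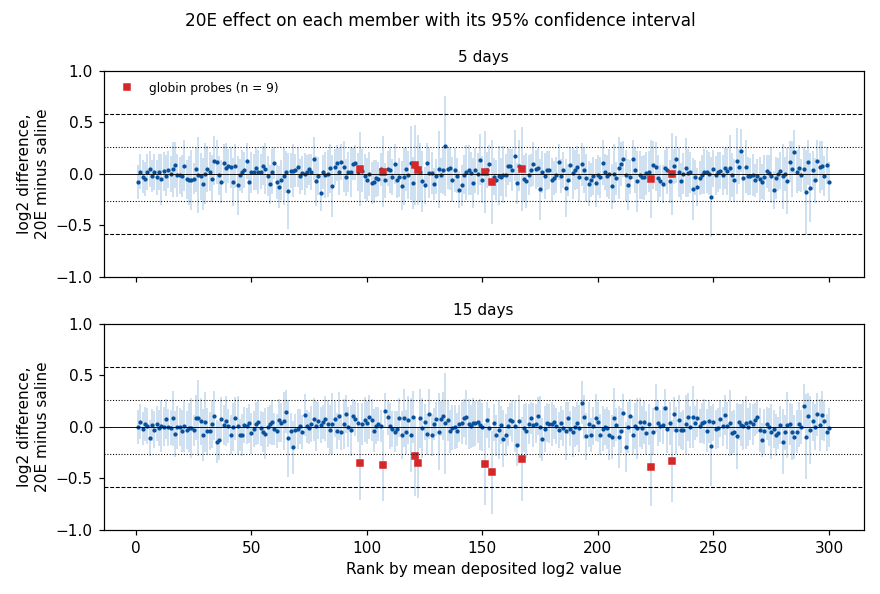
Log2 difference of 20E minus saline for each of the 300 members against rank, at 5 days (top) and 15 days (bottom), with 95% confidence intervals (vertical lines), 1.2-fold (dotted) and 1.5-fold (dashed) bounds and the 9 globin probes as squares. Estimates run from -0.23 to 0.27 at 5 days and from -0.44 to 0.24 at 15 days, where all 9 globin probes lie below 0.

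Of the 6 members with an unadjusted p under 0.05 at 15 days, Gpx4 and Ndufa9 were higher with 20E and the other 4 were globin probes. Gpx4, which reduces lipid peroxides, read 13.75, 13.75 and 13.83 in saline 15d and 13.90, 13.92 and 14.22 in 20E 15d. The groups did not overlap, and the difference was 0.24 (SE 0.096, interval 1.02 to 1.36-fold, adjusted p 1.00 by limma). Ndufa9, a subunit of complex I, read 13.60, 13.71 and 13.74 in saline 15d and 13.92, 13.84 and 13.84 in 20E 15d, a difference of 0.18 without overlap. At 5 days the differences were 0.09 for Gpx4 and 0.05 for Ndufa9.

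The globin probes were the one set of members whose estimates lay together away from 0. They were 5 probes of Hbb-bs, 3 of Hbb-bt and 1 of Hba-a1, which encode the adult beta and alpha chains of haemoglobin, and the near-identical beta genes cannot be told apart. Globins are made by red cell precursors, and in pooled bulk RNA fewer cells of a type and less RNA per cell cannot be told apart. At 15 days all 9 estimates were below 0, with a median of -0.35 and a range of -0.44 to -0.28, and 4 had an unadjusted p under 0.05. None was called (limma, lowest adjusted p 1.00). At 5 days 7 of the 9 were above 0, with a median of 0.02.

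Hba-a1 read 14.67, 14.50 and 14.43 in saline 15d and 14.14, 13.72 and 14.41 in 20E 15d. In saline 5d it read 14.19, 14.37 and 13.84, and in 20E 5d 14.02, 14.25 and 13.89. The 15-day saline pools were the highest of the study, and 20E 15d replicate 3 came just below the lowest of them. The groups of 15 days did not overlap, and the interval of Hba-a1 ran from 0.555-fold to 0.975-fold.

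The 9 probes share their pools and are not separate evidence. Their summed signal was 1.29, 1.04 and 1.14% of the array in saline 15d and 0.909, 0.708 and 1.09% in 20E 15d. It was 0.964, 1.06 and 0.738% in saline 5d and 0.974, 0.937 and 0.846% in 20E 5d. The 15-day groups overlapped on this measure, and saline 5d replicate 3 was nearly as low as 20E 15d replicate 2. Alas2, the haem synthesis enzyme of red cell precursors and the one marker outside the globins, had mean levels of 8.29 in saline 15d and 7.99 in 20E 15d, and 7.86 and 7.71 at 5 days. Summed immune markers were also lower in all 3 20E pools of 15 days, as given with the markers above, and their part in the globin values was not tested. The median of the 9 globin estimates at 15 days was -0.22 when replicate 2 of 20E 15d was left out, and -0.26 when replicate 1 of saline 15d was. It was -0.72 within arrays numbered 1 to 6, and within arrays numbered 7 to 12 it was -0.06, with 7 of 9 below 0. Each of these values rests on 1 array on one side, since the first set holds only replicate 2 of 20E 15d, the pool with the lowest globin signal, and the second only replicate 2 of saline 15d.

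**Figure D5:**
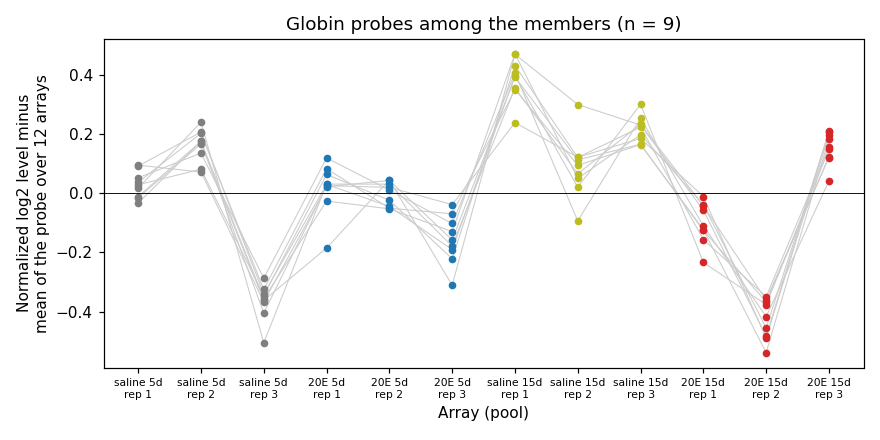
Normalized log2 level of each of the 9 globin probes minus its mean over the 12 arrays, by pool, with lines joining the values of a probe. The probes move together from pool to pool, lowest in 20E 15d replicate 2 and saline 5d replicate 3 and highest in saline 15d replicate 1.

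Averaged over both durations, again 0 members passed an adjusted p under 0.05 by limma, as did 0.0% of all probes, and 2 had an unadjusted p under 0.05 (0.667%, against 4.18%). The interval lay within 1.5-fold for all 300 members (92.7% of all probes tested) and within 1.2-fold for 264 (88.0%, against 39.5%). The median half-width was 0.146. The 2 members were Myom1, which crosslinks myosin in the M band, with 0.14 (SE 0.057), and Gpx4 with 0.16 (SE 0.068). Myom1 read 13.70 to 13.86 in the 6 saline pools and 13.85 to 14.01 in the 6 20E pools, so its groups met at the edge. Ube2b, a ubiquitin-conjugating enzyme, had the smallest p among the lower ones, with -0.14 (SE 0.063).

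For Mylpf the interval of 20E against saline was 0.894 to 1.15-fold at 5 days and 0.867 to 1.11-fold at 15 days. For Ckm it was 0.899 to 1.15-fold and 0.880 to 1.12-fold, for Eno3 0.843 to 1.06-fold and 0.891 to 1.12-fold, and for Atp5b 0.861 to 1.08-fold and 0.909 to 1.14-fold. These 4 lie among the 10 brightest, where the response to brightness was weakest. Acta1 (rank 27) was bounded at 0.768 to 1.28-fold and 0.821 to 1.37-fold. It lies in ranks 11 to 50, where that slope was 0.480, and its levels differed between the sets of running numbers. Further down, one Ryr1 probe (rank 127) was bounded at 0.850 to 1.19-fold and 0.920 to 1.29-fold. The other Ryr1 probe (rank 146) was bounded at 0.796 to 1.11-fold and 0.872 to 1.22-fold.

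By list, members were called in none of the 20E comparisons. The median difference at 5 and 15 days was 0.02 and -0.02 for the 10 thick filament members, 0.00 and -0.01 for the 7 thin filament members and -0.01 and 0.00 for the 16 Z disc members. It was 0.00 and -0.01 for the 12 glycolysis members and 0.00 and 0.03 for the 28 ribosomal protein members. Of the 46 electron transport and ATP synthase members, 24 lay above 0 at 5 days and 34 at 15 days, with medians of 0.00 and 0.04. Among all probes tested, 50.6% and 50.4% lay above 0. Over all 112 tested probes of that list, 3 were higher and 1 lower at an unadjusted p under 0.05 at 5 days, and 2 were higher and 0 lower at 15 days. For the 33 tested probes of the androgen, glucocorticoid, FoxO and myostatin list these counts were 0 at both durations.

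The 20E effect was also compared between durations. The difference of the effects was called for 0 members and 0.0% of all probes by limma, and 1 member had an unadjusted p under 0.05 (0.333%, against 3.37%), an unnamed probe at rank 285 with -0.31. One probe of the ferritin heavy chain gene Fth1 (rank 35) had 20E differences of 0.11 at 5 days and -0.14 at 15 days, and the other (rank 40) had 0.07 and 0.01. The interval of this difference was wider, within 1.5-fold for 281 members (93.7%, against 49.5%) and within 1.2-fold for 20 (6.67%, against 0.66%).

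The durations differed more than the infusions did in count. Pools of 15 days against pools of 5 days, averaged over infusions, gave 0 called members, while limma called 8 of all probes tested (0.0406%). At an unadjusted p under 0.05 there were 24 members (8.0%), against 12.6%. Within saline there were 11 (3.67%, against 7.32%) and within 20E 12 (4.0%, against 8.09%). The lowest adjusted p among members was 0.170, shared by Mylk2 and Ndufa8.

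Mylk2, the myosin light chain kinase of skeletal muscle, read 14.02, 13.98 and 14.19 in saline 5d and 14.05, 14.18 and 14.08 in 20E 5d. At 15 days it read 13.71, 13.90 and 13.85 with saline and 13.77, 13.79 and 13.90 with 20E. All 6 pools of 15 days were lower, by a log2 difference of -0.26 (SE 0.063, adjusted p 0.170 by limma). Ndufa8, a subunit of complex I, read 13.35 to 13.56 in the 6 pools of 5 days and 13.66 to 13.71 in the 6 pools of 15 days. The groups did not overlap, and the difference was 0.24 (SE 0.058). Both were called when limma's variances were moderated with a trend and robustly (adjusted p 0.0288 for Mylk2 and 0.0355 for Ndufa8). That setting had more total degrees of freedom (median 17.7, against 10.9 in the main fit). The share of all probes called with it is not given here, so these calls have no background rate beside them. Pde4dip, which encodes myomegalin, had -0.19 (adjusted p 0.271 by limma).

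By list, 43 of the 46 electron transport and ATP synthase members lay above 0 at 15 against 5 days, with a median of 0.07, and 25 of the 28 ribosomal protein members lay below 0, with a median of -0.09. Among all probes tested 51.2% lay above 0. None of these members was called. Of the first list 6 of 46 and of the second 3 of 28 had an unadjusted p under 0.05, near the 12.6% of all probes tested. Over all 112 tested probes of the electron transport list, 31 were higher and 0 lower at that level, and over all 79 of the ribosomal list 1 was higher and 3 were lower. Among all probes tested 7.1% were higher and 5.48% lower at that level. With arrays scaled by their medians in place of quantiles, the median of all 300 members moved from 0.00 to 0.10. The lists moved with it, to 0.17 (46 of 46 above 0) for the first and 0.01 (16 of 28 above 0) for the second. The ribosomal members thus lay below the median of the members under both scalings, while their sign against 0 turned. Within arrays numbered 1 to 6 the medians were 0.08 and -0.09, and within arrays numbered 7 to 12 they were 0.09 and -0.15.

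Among the members, 27 genes were represented by 2 or more probes (60 probes in all), which gives a check within the array. The 5 Hbb-bs probes gave 15-day differences between -0.37 and -0.31. The 3 Actn3 probes gave 5-day differences between -0.02 and 0.17, and the 2 probes of titin (Ttn) gave 15-day differences of -0.11 and 0.08. The 2 probes of mitochondrial creatine kinase (Ckmt2) gave duration differences of 0.16 and 0.19. For Actn3 and Ttn the probes of 1 gene thus lay further apart than the median size of a member's 20E estimate, 0.04 at both durations.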

How the data were processed

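Expression in 12 RNA pools was measured on Illumina MouseWG-6 v2.0 bead arrays, and tool names are from the submitters' processing notes (BeadStudio 3.1.3 and limma). The deposited signal table holds probe intensity without normalization, with a detection p-value per probe, per the file headers. The deposited log2 table holds values normalized by the authors in a way not given in the sources used here. It chose the members. Signal columns carry a letter for duration that the labels do not define. Each was matched to its log2 column, with a rank correlation of at least 0.976 for its own column and at most 0.899 for any other.

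In R 4.3.3 with limma 3.58.1, intensities were background-corrected and quantile-normalized with neqc (normexp from detection p-values, offset 16). Tests covered the 19704 probes that reached a detection p under 0.05 on 3 or more of the 12 arrays. One model with a mean per group left 8 residual degrees of freedom, with moderated variances and Benjamini-Hochberg adjustment over all probes tested. The p-values set a difference of group means against the spread between pools. Shares used signal after the same normexp background correction, with no offset and no normalization between arrays. They were summed in Python 3.11.15 with pandas 2.3.3 and matplotlib 3.10.9. The method was tested on simulated data. GEO's platform annotation, which can be old, gave 1 symbol to 34885 probes, several to 18 and none to 10378. Promoters came from RefSeq (GRCm38.p6). The rule for named genes took the 10 brightest members, the 3 brightest of each list, the 2 steadiest and 2 least steady, those at the rank limit, and the 2 with the smallest p in each direction and comparison. Other genes in the text, such as those of the promoters and of several probes, were picked after their values were seen. Members and gene lists were chosen with earlier results of these data known. Alternatives changed the scaling, background, offset, filter, variance model, weights, blocks and arrays used. The number of arrays limits the precision.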

Additional observations from a re-analysis of the deposited data

How the results depend on the processing

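Over the alternatives tried, 0 members were called in any 20E comparison. Leaving out 1 array at a time, the 95% interval lay within 1.5-fold for 293 to 298 members at 5 days, 287 to 291 at 15 days and 299 to 300 averaged, the share of signal was 39.6 to 39.9%, and the median SD 0.0867 to 0.0967. The count within 1.2-fold and the distance of the members from all probes in spread and bounds moved with the setting, as given in the report. With the 63 brightest members left out, the interval lay within 1.5-fold for 234 of the 237 left at 5 days, 228 at 15 days and 237 averaged. With no background subtraction the members held 31.5% of the signal. With trend and robust variances, 2 members were called between durations, and the share of all probes called at that setting is not given here. The slope of ranks 1 to 10 on overall brightness ranged from -0.126 to 0.156 over arrays left out, a check chosen after seeing the data, as was the fit within each set of running numbers. Replicate numbers were not shown to pair the pools, with correlations of deviations of 0.14, -0.51 and -0.48 at 5 days and -0.45, -0.05 and -0.56 at 15 days. With the replicate block, 0 members were called and no call changed. Of 2544 alternative values for named members, 2483 stayed on their side of the threshold or within 1 SD, 59 moved, 2 passed it and 0 reversed.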
